A study of Mus musculus with 12 samples.

Results

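The genes described here are 52 mouse genes that license and fire replication origins, copy DNA at the fork, supply its nucleotides and repackage the new strands. They were chosen by name. Each of the 52 names matched a row of the deposited table of 54532 genes, and all 52 were among the 15122 genes that passed the filter on low counts and were tested. They were read as 13 complexes or functional groups: the MCM2-7 helicase, 2 other MCM proteins, the origin recognition complex, licensing control, the helicase partners and firing factors, DNA polymerase alpha-primase, DNA polymerases delta and epsilon, the sliding clamp with its loader, the single-strand binding protein RPA, Okazaki fragment processing, nucleotide supply with uracil removal, chromatin assembly and fork protection.

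The origin recognition complex marks replication origins and, together with CDC6 and CDT1, loads the MCM2-7 ring onto DNA in G1, a step called licensing. In S phase the ring is joined by CDC45 and the GINS complex to form the active helicase, after which polymerase alpha-primase lays down primers, the clamp PCNA is loaded by replication factor C, and polymerases delta and epsilon extend the strands. Many of these genes are transcribed in late G1 under E2F factors, so that their mRNA is abundant in dividing cells such as cultured myoblasts.

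The cells were C2C12, an established mouse myoblast line that leaves the cell cycle and fuses into myotubes when serum is withdrawn. They were grown in DMEM with 5% fetal bovine serum according to the labels, transfected with siRNA at 30 nM and harvested at 48 h. The siCONTROL group received a control siRNA, siKEAP1 and siCCNF targeted the mRNA named, siKEAP1/siCCNF combined both, and each of these 4 groups held 3 biological replicates of poly(A)-selected RNA. It is not given which Ccnf siRNA was sequenced, nor whether 30 nM was the total dose when both siRNAs were combined. KEAP1 is the adaptor through which a CUL3 ubiquitin ligase marks the antioxidant factor NRF2 for degradation, CCNF (cyclin F) is the adaptor of an SCF ligase that acts on cell-cycle proteins, and the study asked how loss of CCNF affects myoblasts that lack KEAP1. Depletion by siRNA is partial, 1 cell line was used, and the comparisons with siCONTROL all rest on the same 3 control libraries. Nothing in the labels states whether the replicates came from separate cultures, so that p-values measure the spread between these libraries.

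The libraries held between 18464209 and 37743198 counts assigned to genes. Values per library are given below as CPM (counts scaled to a common library total after TMM normalization), always in the order of replicates 1, 2 and 3, and levels of different genes are compared as FPKM, which also divides by gene length. Keap1 stood at 90, 89 and 84.3 CPM in siCONTROL cells, 12.3, 12.8 and 12.7 after siKEAP1, 86.5, 88.6 and 80.3 after siCCNF and 22.2, 27 and 23.1 after siKEAP1/siCCNF. Ccnf stood at 85.5, 80.1 and 77.7, 56.8, 64.9 and 56.4, 19.7, 20.5 and 21.3 and 23.7, 24.1 and 25.6 CPM in the same order of groups. Replicate 1 of siCONTROL and replicate 3 of siKEAP1/siCCNF stood apart from the other libraries of their groups: the chi-square per gene against them was 29.3 to 43.4 and that of the other same-group pairs 2.96 to 13.3. Results were also computed without these 2 libraries. Marker genes moved with the groups as well. All 7 myoblast markers were detected, and their summed level fell from 1620 to 1840 CPM in siCONTROL cells to between 801 and 1100 CPM in the depleted groups. The 10 markers of differentiated muscle summed to 69.7 to 159 CPM in siCONTROL cells, with replicate 1 highest, and to 6.1 to 7.71 CPM after siKEAP1, where Ckm was at 0 in every library, 22.5 to 33.2 CPM after siCCNF and 10.1 to 12.7 CPM after both. The 20 G2/M genes summed to 3330 to 3600, 2490 to 2540, 1670 to 1870 and 2010 to 2220 CPM in siCONTROL, siKEAP1, siCCNF and siKEAP1/siCCNF cells. Markers of macrophages, endothelium, adipocytes and epithelium each summed to at most 12.4 CPM in any library, with the pan-leukocyte gene Ptprc at 0 in 10 of the 12 libraries and the adipocyte gene Plin1 at 0 in 11. Some of these markers rose at low levels: Cd68 stood at 0.672, 1.36 and 0.963 CPM in siCONTROL cells and 5.34, 9.97 and 6.71 after siKEAP1, Fabp4 at 0.0448, 0.109 and 0.0963 and 2.46, 3.32 and 2.15, and of the remaining ones Tek was called higher after siKEAP1 and Lyz2 and Cdh1 after siCCNF by edgeR. The part of differentiation state and cell-cycle distribution in the differences described below was not tested, and in bulk RNA fewer cells in S phase cannot be told apart from less mRNA per cell.

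The replication genes formed a smaller share of all counts in every depleted library than in every control library. They took 0.431% to 0.446% of the counts in siCONTROL cells, 0.378% to 0.396% after siKEAP1, 0.239% to 0.256% after siCCNF and 0.288% to 0.309% after siKEAP1/siCCNF. The ranges of the 4 groups did not overlap, and siCCNF cells held the least. Calls were made at an adjusted p under 0.05, from the quasi-likelihood test of edgeR with p-values adjusted by Benjamini-Hochberg over the 15122 genes. After siCCNF, 47 of the 52 genes were called lower, where 25.5% of all genes tested were, and 2 were called higher, where 22.5% were. Their median log2 fold change was -0.79, beside 0.013 for all genes tested. Of the 52 genes, 13 were called lower and fell more than 2-fold, beside 6.76% of all genes tested. The 3 siCCNF libraries lay below the 3 siCONTROL libraries for 47 genes, as for 28.6% of all genes tested.

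After siKEAP1 the fall was shallower and covered fewer of the genes. Of the 52, 24 were called lower and 0 higher, beside 20.2% and 20.4% of all genes tested, and the median log2 fold change was -0.20. The 0 higher calls are those of edgeR. At an unadjusted p under 0.05 edgeR gave 2 higher genes, Pola2 and Rpa1, with log2 fold changes of 0.21 and 0.12, and 2 genes were called higher by DESeq2, 2 by limma on log2(FPKM + 1) and 1 by limma on log2(FPKM + 0.1). After siKEAP1/siCCNF, 40 genes were called lower and 1 higher, beside 23.6% and 20.6% of all genes tested, with a median of -0.55. Of the 52, 4 were called lower and fell more than 2-fold, beside 5.54% of all genes tested. Of all 52 genes, 39 lay below siCONTROL without overlap, as did 25.3% of all genes tested. The double depletion therefore lay between both single depletions in median, in the number of genes called and in the share of counts. The fall was not particular to the replication genes. Of the 20 G2/M genes, 20 were called lower after siCCNF, 19 after siKEAP1 and 20 after both. Their medians were -0.94, -0.48 and -0.68, each below that of the 52 genes.

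**Figure D1:**
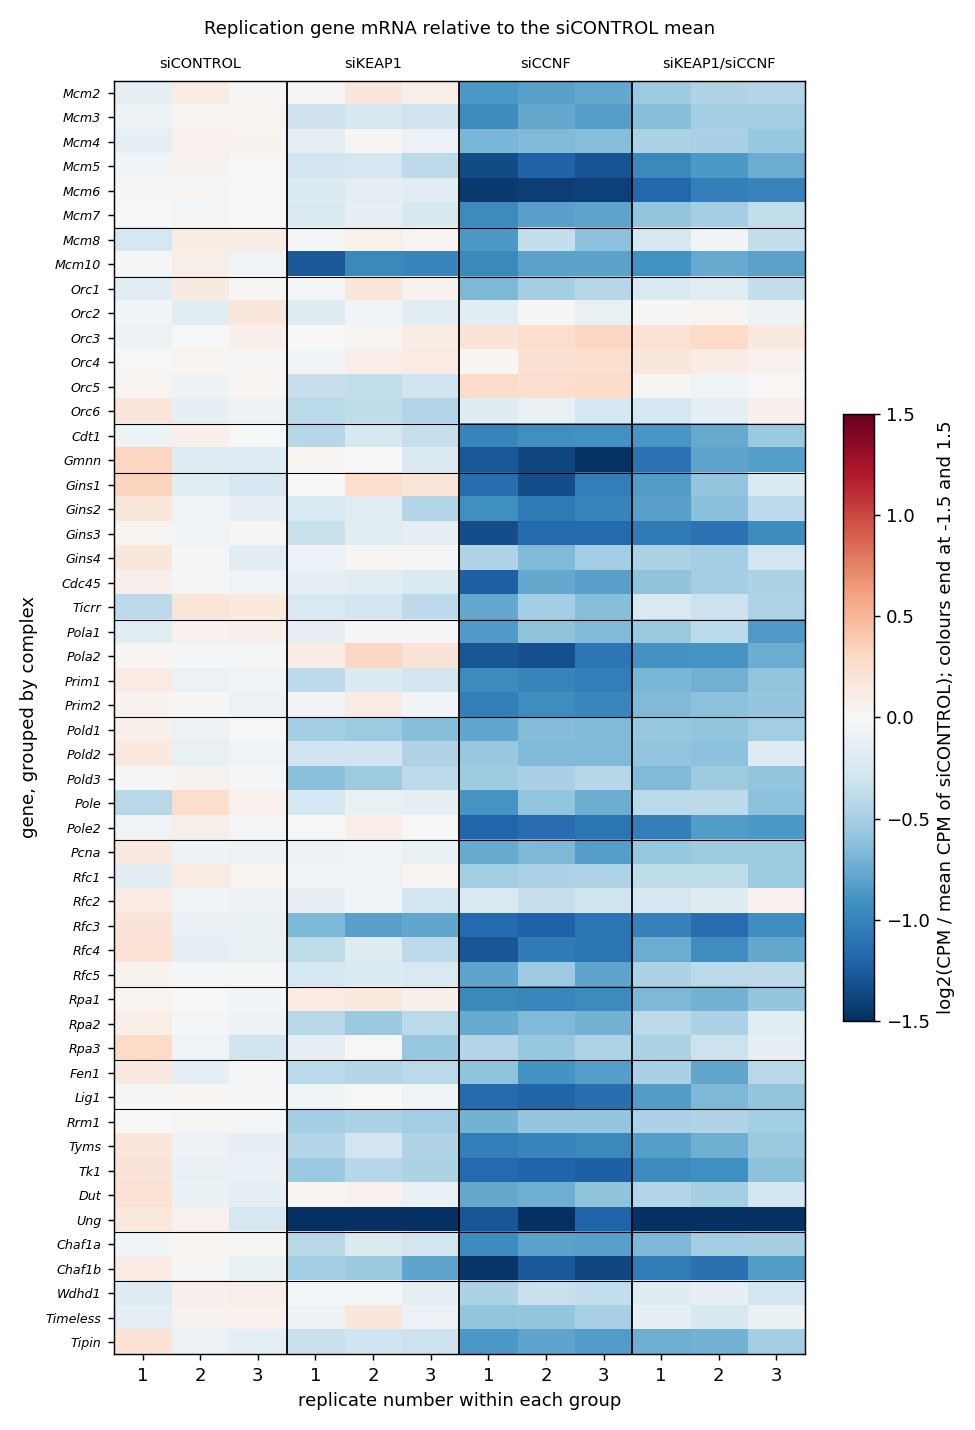
Level of each of the 52 replication genes (rows, in the order of their complexes, with lines between complexes) in each of the 12 libraries (columns), as the log2 of its CPM over the mean CPM of siCONTROL. Blue marks levels below the control mean and red levels above it. The siCCNF columns are blue in nearly all rows except those of Orc2 to Orc6, the siKEAP1 columns are paler, and Ung is the gene that is darkest after siKEAP1, at a log2 fold change of -2.61.

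The complexes did not move alike after siCCNF. The origin recognition complex was the 1 group of genes whose median log2 fold change was not negative, at 0.044, with 1 subunit called lower, 2 higher and 3 not called. In each of the other 12 groups every member was called lower. Their medians ran from -0.55 for fork protection, -0.70 for polymerases delta and epsilon, -0.71 for RPA and -0.73 for the clamp and its loader to -0.85 for the MCM2-7 helicase, -0.96 for the helicase partners, -0.99 for polymerase alpha-primase, -1.0 for nucleotide supply, -1.11 for chromatin assembly and -1.16 for licensing control. The remaining 2 groups, the other MCM proteins and Okazaki fragment processing, stood at -0.73 and -0.97. These groups hold 2 to 6 genes each, and differences between them are given as a description without a test. After siKEAP1 the order was another one: the medians lay between -0.52 for the other MCM proteins, which is Mcm10 averaged with Mcm8, and -0.02 for polymerase alpha-primase, and no helicase partner was called.

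**Figure D2:**
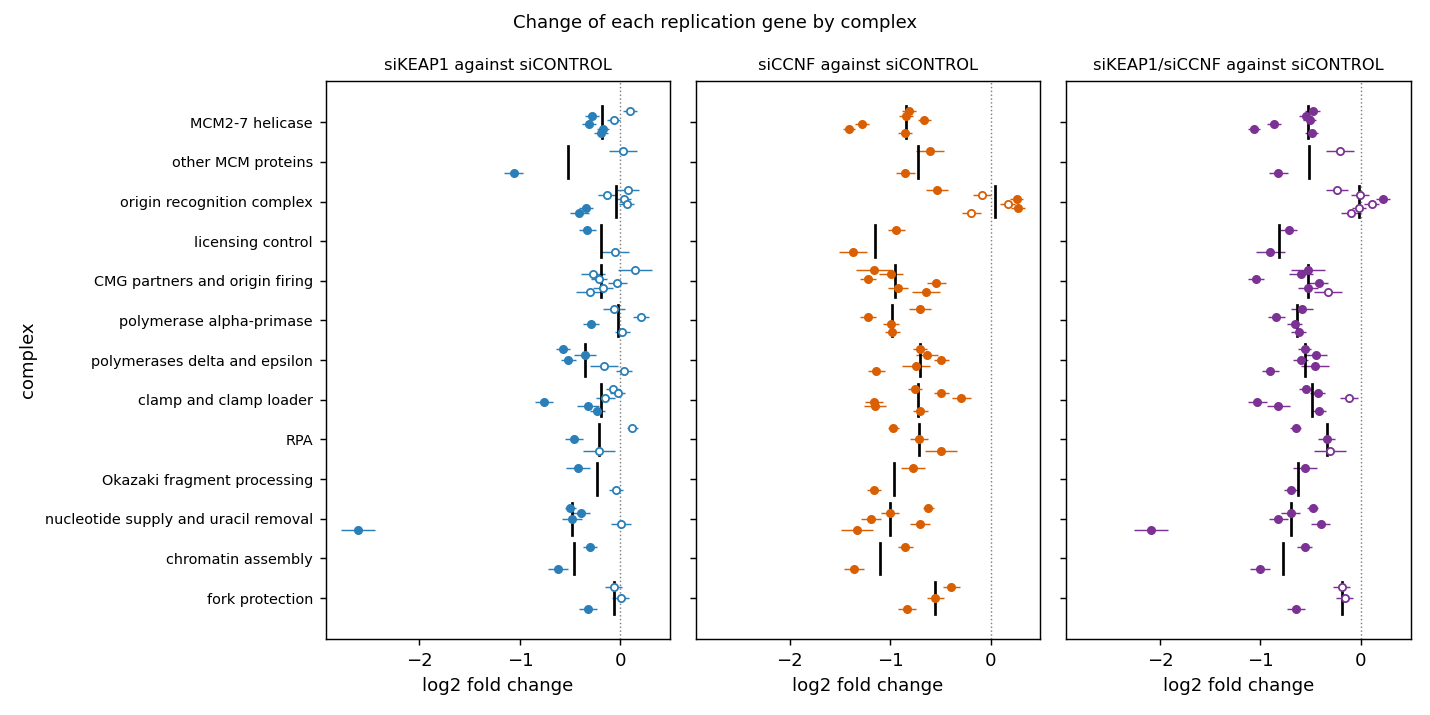
Log2 fold change of each gene against siCONTROL (horizontal axis, bars give the standard error) in its complex (vertical axis), after siKEAP1, siCCNF or both. Filled points were called changed, open points were not, and black lines mark the median of a complex. After siCCNF the points of the origin recognition complex lie around 0, with a median of 0.044, while every point of the other complexes lies below 0 and is filled.

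Of the origin recognition complex, the 6-subunit machine that binds origins, Orc1 was the 1 subunit called lower after siCCNF. Orc1, the subunit whose abundance changes most through the cell cycle, was the least abundant of the 6 per length in siCONTROL cells, at 2.91 ± 0.3 FPKM (SD, n = 3), and Orc6 the most abundant, at 50.9 ± 5.95 FPKM. Orc1 stood at 9.14, 11.2 and 10.3 CPM in siCONTROL cells, 10.1, 11.5 and 10.6 after siKEAP1, 6.41, 7.19 and 7.6 after siCCNF, and 8.73, 9.09 and 7.95 after siKEAP1/siCCNF. The siCCNF libraries were the lowest and did not overlap with any other group. It fell to 69.3% of the control level (log2 fold change -0.53, SE 0.11, edgeR adjusted p = 0.0018). With both siRNAs the change of -0.24 on the log2 scale did not pass the test (edgeR adjusted p = 0.0971).

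The core subunits Orc3 and Orc5 were the 2 replication genes called higher after siCCNF. Orc3 stood at 59.1, 61.9 and 65.4 CPM in siCONTROL cells, 61.9, 62.7 and 66.9 after siKEAP1, 71, 74.8 and 77 after siCCNF, and 72.3, 76 and 69 after siKEAP1/siCCNF. Every library that had received siCCNF, alone or with siKEAP1, was above every library that had not. It rose to 119% of the control level after siCCNF (log2 fold change 0.26, SE 0.066, edgeR adjusted p = 0.00608) and to 117% after both (log2 fold change 0.22, SE 0.066, edgeR adjusted p = 0.0157), and this last call was lost without siCONTROL replicate 1, siCONTROL replicate 2 or siKEAP1/siCCNF replicate 2. Orc5 stood at 22, 20.3 and 21.9 CPM in siCONTROL cells, 16.9, 16.6 and 17.4 after siKEAP1, 25.8, 25.4 and 26.1 after siCCNF, and 21.6, 20.4 and 21.4 after siKEAP1/siCCNF. It was the subunit with opposite calls in the single depletions, lower after siKEAP1 (log2 fold change -0.34, SE 0.071, edgeR adjusted p = 0.00191) and higher after siCCNF (log2 fold change 0.27, SE 0.069, edgeR adjusted p = 0.00605), and its libraries with both depleted overlapped with siCONTROL (log2 fold change -0.021, SE 0.07, edgeR adjusted p = 0.832). The rise of Orc5 after siCCNF was not called when genes were left unfiltered.

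Orc2, Orc4 and Orc6 were not called after siCCNF. Orc2 and Orc4, further core subunits, had log2 fold changes of -0.086 and 0.17. Orc6, which differs from the others in sequence and also acts in cytokinesis, stood at 143, 116 and 120 CPM in siCONTROL cells, 95.5, 97.4 and 93.5 after siKEAP1, 111, 117 and 105 after siCCNF, and 105, 115 and 133 after siKEAP1/siCCNF. The siKEAP1 libraries were the lowest, and those of the other 3 groups overlapped. It fell after siKEAP1 (log2 fold change -0.41, SE 0.094, edgeR adjusted p = 0.00363). Exons of Orc2, Orc4 and Orc6 overlap with genes on the opposite strand that had counts of the same order or more. For Orc6 this is Vps35, with 171 shared bases. It is not given whether the counting used the strand, so that reads of these pairs cannot be told apart over the bases that they share. Summed over its 6 subunits, the complex held 89.9, 79.2 and 83 FPKM in siCONTROL cells and 78.1, 83 and 77.9 FPKM after siCCNF, ranges that overlapped.

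**Figure D3:**
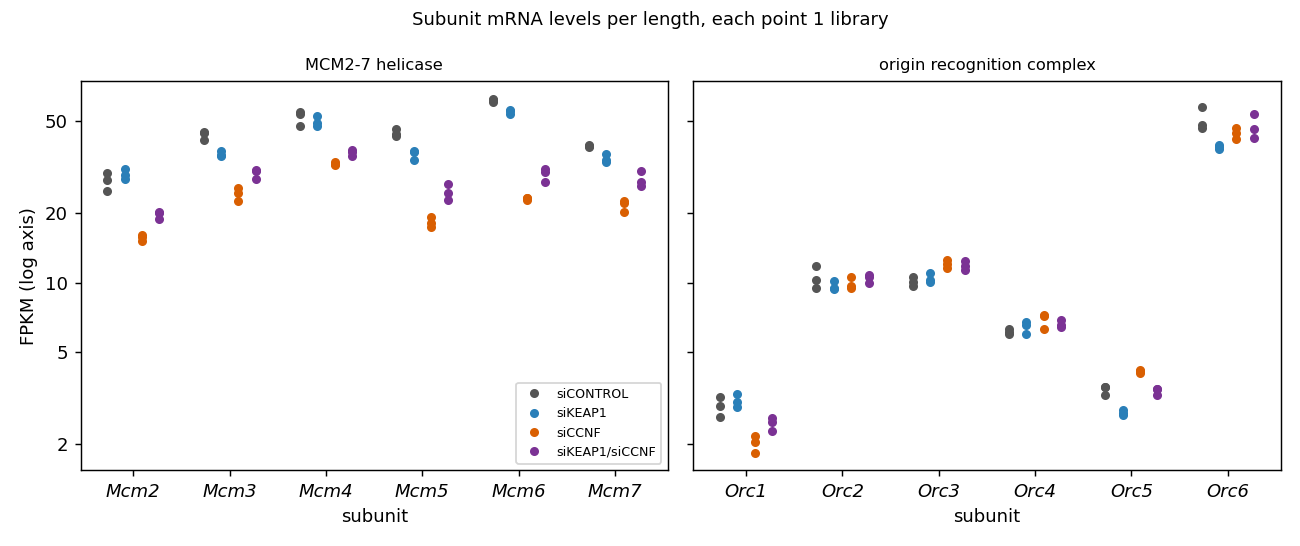
FPKM of each subunit of the MCM2-7 helicase (left) and of the origin recognition complex (right) on a log axis, with 1 point for each library and 1 colour for each group. For the helicase the siCCNF points lie below those of the other groups for all 6 subunits, and Mcm6 passes from the top of the control libraries, at 61.5 ± 1.19 FPKM, to 23.1 ± 0.245 FPKM, below Mcm4. For the origin recognition complex the groups largely overlap except for Orc1, Orc3, Orc5 and the low siKEAP1 libraries of Orc6.

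The 6 genes of the MCM2-7 helicase, the ring that unwinds DNA at the fork, all fell after siCCNF and all fell after siKEAP1/siCCNF. Mcm6 fell furthest. It stood at 283, 294 and 291 CPM in siCONTROL cells, 252, 261 and 260 after siKEAP1, 107, 109 and 110 after siCCNF, and 128, 142 and 145 after siKEAP1/siCCNF. The 4 groups did not overlap in any pair, and siCCNF was lowest. After siCCNF it stood at 37.6% of control (log2 fold change -1.41, SE 0.06, edgeR adjusted p = 3.8e-09) and after both 47.8% (log2 fold change -1.06, SE 0.059, edgeR adjusted p = 3.34e-08). After siKEAP1 it was 89.1% (log2 fold change -0.17, SE 0.058, edgeR adjusted p = 0.0356), a call that was lost in 8 of the 22 alternatives, including the removal of any siKEAP1 library.

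Mcm4 fell least after siCCNF. It stood at 172, 197 and 194 CPM in siCONTROL cells, 171, 190 and 177 after siKEAP1, 117, 119 and 121 after siCCNF, and 135, 134 and 127 after siKEAP1/siCCNF. The siKEAP1 libraries overlapped with siCONTROL and the siCCNF libraries were the lowest. It fell to 63.4% of control after siCCNF (log2 fold change -0.66, SE 0.066, edgeR adjusted p = 3.77e-06). Mcm5 stood at 174, 185 and 178 CPM in siCONTROL cells, 148, 149 and 136 after siKEAP1, 70.4, 77.5 and 73.2 after siCCNF, and 91.5, 98.6 and 107 after siKEAP1/siCCNF. Like Mcm6, it had 4 groups that did not overlap, with siCCNF lowest. It fell to 41.1% of control after siCCNF (log2 fold change -1.28, SE 0.071, edgeR adjusted p = 2.4e-08).

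Mcm3 stood at 157, 168 and 170 CPM in siCONTROL cells, 133, 140 and 134 after siKEAP1, 85, 97.1 and 93.2 after siCCNF, and 106, 116 and 115 after siKEAP1/siCCNF. Mcm7 stood at 176, 173 and 175 CPM in siCONTROL cells, 150, 160 and 148 after siKEAP1, 90.4, 99.3 and 101 after siCCNF, and 116, 123 and 135 after siKEAP1/siCCNF. In both, the groups ranked siCONTROL, siKEAP1, siKEAP1/siCCNF and siCCNF from high to low without overlap. The fall of Mcm7 after siKEAP1 (-0.19) was called but was lost without siCONTROL replicate 2 or 3 or siKEAP1 replicate 1 or 3, and reads of its opposite-strand neighbours Cops6 and Ap4m1 may be shared with it. Mcm2 did not pass the test after siKEAP1 (log2 fold change 0.095, SE 0.071, edgeR adjusted p = 0.321) and fell after siCCNF, with a log2 fold change of -0.81.

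The unequal falls changed the order of the subunits per length. In siCONTROL cells the FPKM values ranked Mcm6 (61.5 ± 1.19, SD, n = 3), Mcm4 (51.9 ± 3.77), Mcm5 (44.5 ± 1.45), Mcm3 (43.6 ± 1.84), Mcm7 (39.1 ± 0.317) and Mcm2 (27.5 ± 2.41), with Mcm5 and Mcm3 not separated beyond their spread. After siCCNF they ranked Mcm4 (32.8 ± 0.531), Mcm3 (24.2 ± 1.54), Mcm6 (23.1 ± 0.245), Mcm7 (21.7 ± 1.16), Mcm5 (18.3 ± 0.836) and Mcm2 (15.7 ± 0.43). Mcm6 thus went from the most abundant subunit to a level below Mcm4 and within the range of the Mcm3 libraries. Summed over the 6 subunits, the helicase held 257, 276 and 271 FPKM in siCONTROL cells, 236, 250 and 237 after siKEAP1, 131, 139 and 138 after siCCNF and 160, 170 and 174 after both.

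The promoters of these genes were searched for E2F-type sites, and 4 stretches are shown because they come from the 2 helicase subunits that fell furthest, from Orc3, which rose, and from the catalytic subunit of polymerase alpha. They are RefSeq promoter sequence on GRCm38.p6, written 5′ to 3′ on the strand of the gene and upstream of its start, with the E2F-type matches in capitals.
Mcm6, chr1:128359719-128359841, minus strand: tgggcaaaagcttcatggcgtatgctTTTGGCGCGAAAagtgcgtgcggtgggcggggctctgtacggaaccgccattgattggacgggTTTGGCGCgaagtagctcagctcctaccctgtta
Mcm5, chr8:75109330-75109393, plus strand: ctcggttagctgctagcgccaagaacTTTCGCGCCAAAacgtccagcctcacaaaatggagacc
Orc3, chr4:34614950-34615009, minus strand: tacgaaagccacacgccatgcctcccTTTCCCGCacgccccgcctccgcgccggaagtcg
Pola1, chrX:93632260-93632319, minus strand: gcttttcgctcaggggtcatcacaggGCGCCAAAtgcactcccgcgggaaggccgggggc
The motifs were TTTCCCGC, TTTCGCGC, TTTGGCGC and TTTGCCGC on either strand. The Mcm6 stretch holds 3 matches, of which 2 overlap in the first capital run, and the Mcm5 stretch holds 2 that overlap. Orc3 and Pola1 hold 1 match each. Over all promoters in the table, from 250 bases before to 50 bases after the start, 2.26% hold at least 1 match.

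Of the other MCM proteins, Mcm10 is a scaffold that is needed to activate the loaded helicase. After siKEAP1, 2 of the 52 genes fell more than 2-fold, a share close to that of all genes tested (587 of 15122), and Mcm10 was among the 2. It stood at 34, 37 and 33.1 CPM in siCONTROL cells, 14.5, 17.8 and 17.5 after siKEAP1, 17.8, 19.9 and 19.9 after siCCNF, and 18.5, 20.6 and 19.9 after siKEAP1/siCCNF. The 3 depleted groups all lay below siCONTROL without overlap, and the siKEAP1 and siCCNF libraries overlapped with each other. It fell after siKEAP1 (log2 fold change -1.06, SE 0.095, edgeR adjusted p = 1.5e-06), after siCCNF (log2 fold change -0.85, SE 0.093, edgeR adjusted p = 7.17e-06) and after both (log2 fold change -0.82, SE 0.093, edgeR adjusted p = 1.25e-05). Mcm8, a helicase of homologous recombination, stood at 10.4, 13.5 and 13.5 CPM in siCONTROL cells, 12.2, 13 and 12.8 after siKEAP1, 6.87, 9.76 and 8.16 after siCCNF, and 10.4, 12.1 and 9.75 after siKEAP1/siCCNF. It fell after siCCNF (log2 fold change -0.60, SE 0.14, edgeR adjusted p = 0.00388) and passed no other comparison with siCONTROL.

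Both genes of licensing control fell after siCCNF. Geminin (Gmnn), the inhibitor of CDT1, stood at 46, 32.1 and 32.3 CPM in siCONTROL cells, 37.5, 37.1 and 31.8 after siKEAP1, 15.2, 14.3 and 13.2 after siCCNF, and 17.1, 21.3 and 20.7 after siKEAP1/siCCNF. Replicate 1 of siCONTROL was the highest library, and the siCCNF libraries were the lowest without overlap. Gmnn fell to 38.7% of control after siCCNF (log2 fold change -1.37, SE 0.14, edgeR adjusted p = 4.47e-06). Cdt1, the loader of the MCM ring that geminin inhibits, stood at 52, 57.8 and 54.7 CPM in siCONTROL cells, 40.9, 46.3 and 43.2 after siKEAP1, 27.3, 29 and 29.1 after siCCNF, and 30, 32.6 and 37.4 after siKEAP1/siCCNF. The groups did not overlap in any pair. Cdt1 fell to 51.9% of control after siCCNF (log2 fold change -0.94, SE 0.086, edgeR adjusted p = 1.48e-06). Cdt1 also fell after siKEAP1 (-0.33), whereas Gmnn did not pass that test (log2 fold change -0.054, SE 0.14, edgeR adjusted p = 0.789).

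Among the partners that complete the active helicase, Gins3, one of 4 subunits of the GINS complex, fell furthest after siCCNF. It stood at 45.7, 43.5 and 45.6 CPM in siCONTROL cells, 35.6, 40.2 and 41 after siKEAP1, 17.8, 20 and 20 after siCCNF, and 21.6, 20.8 and 23.3 after siKEAP1/siCCNF. The siCCNF libraries were the lowest and the siKEAP1/siCCNF libraries the next lowest. The fall after siCCNF (log2 fold change -1.22, SE 0.08, edgeR adjusted p = 9.04e-08) was followed by that of Gins1 (log2 fold change -1.16, SE 0.18, edgeR adjusted p = 0.000125), whose siCONTROL libraries spread from 16.2 to 24.5 CPM with replicate 1 highest. Gins4 fell least (log2 fold change -0.54, SE 0.095, edgeR adjusted p = 0.000441), at 42.2, 36.5 and 33.4 CPM in siCONTROL cells, 35.3, 37.8 and 36.6 after siKEAP1, 27.2, 23.7 and 26.3 after siCCNF, and 27, 26.3 and 30.5 after siKEAP1/siCCNF. Its siCCNF libraries lay below siCONTROL and siKEAP1 without overlap. Gins2 stood at 36.1, 30.7 and 29.4 CPM in siCONTROL cells, 27.3, 28.6 and 23.6 after siKEAP1, 16.9, 15.4 and 16.2 after siCCNF, and 18.2, 20.7 and 24.5 after siKEAP1/siCCNF. Its siKEAP1 and siKEAP1/siCCNF libraries overlapped, and its exons overlap with Gse1 on the opposite strand. Without siCONTROL replicate 1, siKEAP1/siCCNF replicate 1 or siKEAP1/siCCNF replicate 2, the fall of Gins1 after both siRNAs (-0.53) was not called.

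Cdc45, which rides with the MCM ring and GINS at the fork, stood at 47.6, 44.7 and 43.5 CPM in siCONTROL cells, 41.2, 40.5 and 38.9 after siKEAP1, 19.4, 26.5 and 25.8 after siCCNF, and 29.7, 31.8 and 32.6 after siKEAP1/siCCNF. The groups did not overlap, and replicate 1 was the lowest of the siCCNF libraries. It fell after siCCNF (log2 fold change -0.92, SE 0.1, edgeR adjusted p = 8.55e-06). Ticrr, the factor that brings CDC45 to licensed origins, stood at 18.4, 27.2 and 26.6 CPM in siCONTROL cells, 20.5, 19.8 and 18.3 after siKEAP1, 14.1, 16.9 and 15.4 after siCCNF, and 20.6, 19.2 and 17.4 after siKEAP1/siCCNF. Its siCONTROL replicate 1 lay within the range of the siKEAP1 and siKEAP1/siCCNF libraries, and siCCNF was below all other groups. It fell after siCCNF alone (log2 fold change -0.64, SE 0.14, edgeR adjusted p = 0.0017), and after both its log2 fold change was -0.33 and did not pass the test (edgeR adjusted p = 0.0627). The exons of Cdc45 and Ticrr overlap with Ufd1 and Kif7 on the opposite strand.

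All 4 genes of polymerase alpha-primase, which makes the RNA-DNA primers, fell after siCCNF and after both siRNAs. Pola2, its regulatory subunit, fell furthest. It stood at 51.2, 49.6 and 49.7 CPM in siCONTROL cells, 54.2, 62.4 and 57.2 after siKEAP1, 20.6, 20.1 and 23.7 after siCCNF, and 26.9, 27.2 and 29.9 after siKEAP1/siCCNF. The siKEAP1 libraries were above and the siCCNF libraries far below siCONTROL, without overlap. The level after siCCNF was 42.8% of control (log2 fold change -1.22, SE 0.082, edgeR adjusted p = 1.05e-07), and after siKEAP1 it was 115% and did not pass the test (log2 fold change 0.21, SE 0.08, edgeR adjusted p = 0.0549). Pola1, the catalytic subunit, stood at 70.6, 82.9 and 83.5 CPM in siCONTROL cells, 72.3, 77.4 and 77.6 after siKEAP1, 43.7, 51.8 and 50 after siCCNF, and 53.8, 59.7 and 43.8 after siKEAP1/siCCNF. It fell least of the 4 after siCCNF (log2 fold change -0.70, SE 0.11, edgeR adjusted p = 0.000151), and its siCCNF and siKEAP1/siCCNF libraries overlapped.

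The primase subunits moved together in Ccnf-depleted cells. Prim1, which synthesizes the RNA primer, stood at 59.7, 51.4 and 52.9 CPM in siCONTROL cells, 41.5, 47.5 and 45.1 after siKEAP1, 28.2, 27.4 and 26.7 after siCCNF, and 34.1, 33.1 and 36.4 after siKEAP1/siCCNF. Prim2, its large subunit, stood at 40, 39.2 and 36.1 CPM in siCONTROL cells, 37.5, 42 and 37.3 after siKEAP1, 18.9, 20.1 and 19.5 after siCCNF, and 24.3, 25 and 25.8 after siKEAP1/siCCNF. Both were lowest after siCCNF (-0.99 and -0.98 on the log2 scale), and Prim1 but not Prim2 was called lower after siKEAP1 (log2 fold change -0.29, SE 0.077, edgeR adjusted p = 0.00842).

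All 5 subunits of the polymerases that extend both strands that are among the 52 genes fell after siCCNF, as did the small subunits Pold4, Pole3 and Pole4 of the list of further replication genes (-0.33, -0.38 and -0.21). Pole2, the second subunit of polymerase epsilon, which acts on the leading strand, stood at 21.4, 23.8 and 21.9 CPM in siCONTROL cells, 22.3, 23.9 and 22.4 after siKEAP1, 9.81, 10.1 and 10.5 after siCCNF, and 11, 12.5 and 12.3 after siKEAP1/siCCNF. The siKEAP1 libraries overlapped with siCONTROL, and both groups with Ccnf depleted lay far below them. Pole2 fell to 45.4% of control after siCCNF (log2 fold change -1.14, SE 0.084, edgeR adjusted p = 2.42e-07). Pole, its catalytic subunit, fell after siCCNF (log2 fold change -0.74, SE 0.14, edgeR adjusted p = 0.000786). Its siCONTROL libraries spread widely, from 36.1 CPM in replicate 1 to 58.1 CPM in replicate 2, and without siCONTROL replicate 2 or siKEAP1/siCCNF replicate 3 its fall after both siRNAs (-0.46) was not called.

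Of polymerase delta, which acts on the lagging strand, Pold1, Pold2 and Pold3 were also called lower after siKEAP1, whereas its small subunit Pold4 was called higher. Pold4 stood at 54.3, 42.5 and 36.8 CPM in siCONTROL cells, 80.6, 78.3 and 72.8 after siKEAP1, 36.7, 34.6 and 34.7 after siCCNF and 33.2, 33.2 and 39 after siKEAP1/siCCNF. Its siKEAP1 libraries were above all others (log2 fold change 0.79, SE 0.12, edgeR adjusted p = 0.00013). Pold3 stood at 46.5, 49.4 and 46.5 CPM in siCONTROL cells, 30.7, 32.9 and 36.1 after siKEAP1, 32.7, 33.8 and 35.2 after siCCNF, and 29.9, 32.8 and 31.5 after siKEAP1/siCCNF. The 3 depleted groups overlapped with each other and lay below siCONTROL. Its log2 fold changes were -0.52 after siKEAP1, -0.49 after siCCNF, the least of the 5 subunits among the 52, and -0.60 after both (edgeR adjusted p = 2.55e-05 for both siRNAs). Pold1, the catalytic subunit, stood at 58.8, 52.8 and 56.1 CPM in siCONTROL cells, 39.2, 38.2 and 35.8 after siKEAP1, 32.6, 35.5 and 35.3 after siCCNF, and 37.7, 37.1 and 38.9 after siKEAP1/siCCNF. Its log2 fold changes were -0.57 after siKEAP1 and -0.70 after siCCNF. Pold2 stood at 67.7, 56.3 and 58 CPM in siCONTROL cells, 49.3, 49.3 and 44.2 after siKEAP1, 40.8, 38.3 and 38.3 after siCCNF, and 40.4, 39.6 and 53.2 after siKEAP1/siCCNF. Replicate 3 of siKEAP1/siCCNF was higher than its partners, and its fall after siKEAP1 (-0.35) was not called without siCONTROL replicate 1 or siKEAP1 replicate 3. For epsilon, neither Pole (log2 fold change -0.16, SE 0.14, edgeR adjusted p = 0.386) nor Pole2 (log2 fold change 0.035, SE 0.082, edgeR adjusted p = 0.769) passed the test after siKEAP1, while the small subunit Pole3 was called lower (-0.37), and the difference between the 2 polymerases was not tested.

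Pcna, the sliding clamp that tethers the polymerases, was the most abundant of the 52 mRNAs per length, at 102 ± 9.32 FPKM in siCONTROL cells (SD, n = 3) and 60.5 ± 3.28 FPKM after siCCNF. It stood at 273, 235 and 233 CPM in siCONTROL cells, 232, 241 and 231 after siKEAP1, 146, 155 and 139 after siCCNF, and 167, 170 and 170 after siKEAP1/siCCNF. The siKEAP1 libraries overlapped with siCONTROL (log2 fold change -0.073, SE 0.069, edgeR adjusted p = 0.429), and the siCCNF libraries were the lowest (log2 fold change -0.75, SE 0.069, edgeR adjusted p = 1.65e-06). The pseudogene Pcna-ps2 carried 84.5, 69.6 and 66.9 CPM in siCONTROL cells and 41.1, 45 and 42.4 CPM after siCCNF, so that the level of Pcna is uncertain by reads that both could share.

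The 5 subunits of replication factor C, which opens and loads the clamp, spread widely after siCCNF. Rfc3 stood at 89.2, 72.7 and 72.2 CPM in siCONTROL cells, 48.9, 44.2 and 45.6 after siKEAP1, 34.8, 33.6 and 36.5 after siCCNF, and 38.5, 35.4 and 41 after siKEAP1/siCCNF. Every depleted group was below siCONTROL, and the siCCNF and siKEAP1/siCCNF libraries overlapped. It fell furthest of the 5 after siCCNF (log2 fold change -1.16, SE 0.091, edgeR adjusted p = 4.03e-07) and also after siKEAP1 (log2 fold change -0.76, SE 0.09, edgeR adjusted p = 2.05e-05). Rfc2 fell least after siCCNF (log2 fold change -0.29, SE 0.092, edgeR adjusted p = 0.0201), at 74.4, 65.9 and 65 CPM in siCONTROL cells, 62.8, 65.9 and 56.3 after siKEAP1, 58.3, 53.9 and 55.8 after siCCNF, and 57.7, 60.1 and 71.8 after siKEAP1/siCCNF. The siCONTROL and siCCNF libraries did not overlap, but the call after siCCNF was lost without siCONTROL replicate 1, siCCNF replicate 2 or siCCNF replicate 3.

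Rfc4 stood at 31.8, 24.9 and 25.4 CPM in siCONTROL cells, 21, 24.1 and 20.8 after siKEAP1, 11.2, 13.1 and 12.8 after siCCNF, and 16.3, 14.3 and 16.1 after siKEAP1/siCCNF. Rfc5 stood at 72.1, 68.5 and 68.2 CPM in siCONTROL cells, 58, 60.6 and 59.6 after siKEAP1, 40.3, 47.6 and 40.2 after siCCNF, and 50, 52.5 and 53.2 after siKEAP1/siCCNF. Both were lowest after siCCNF (-1.15 and -0.70 on the log2 scale), and both were called lower after siKEAP1 (-0.32 and -0.23). Each of these siKEAP1 calls was lost without siKEAP1 replicate 1 or 3, that of Rfc4 also without siCONTROL replicate 1, and the exons of Rfc4 and Rfc5 overlap with Eif4a2 and Wsb2, which are more strongly counted and lie on the opposite strand. Rfc1, the large subunit, fell after siCCNF (-0.49) and after both (-0.43).

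RPA, the trimer that coats single-stranded DNA, fell in all 3 subunits after siCCNF. Rpa1, the large DNA-binding subunit, stood at 260, 256 and 247 CPM in siCONTROL cells, 278, 281 and 269 after siKEAP1, 130, 129 and 131 after siCCNF, and 160, 156 and 170 after siKEAP1/siCCNF. The siKEAP1 libraries were the highest and the siCCNF libraries the lowest, without overlap between any groups. The level after siCCNF was 51.1% of control (log2 fold change -0.97, SE 0.055, edgeR adjusted p = 2.62e-08), and after siKEAP1 it was 109% and did not pass the test (log2 fold change 0.12, SE 0.054, edgeR adjusted p = 0.0978). Rpa2 stood at 57.7, 52.8 and 51.1 CPM in siCONTROL cells, 40.5, 36.5 and 40.6 after siKEAP1, 31.8, 34.1 and 32.9 after siCCNF, and 41, 38.8 and 48.3 after siKEAP1/siCCNF. It fell in both single depletions, with log2 fold changes of -0.46 after siKEAP1 and -0.71 after siCCNF. Rpa3 stood at 46.4, 36.5 and 30.7 CPM in siCONTROL cells, 34.6, 37.9 and 25.5 after siKEAP1, 27.9, 25.6 and 27.4 after siCCNF, and 27.3, 30.4 and 34.2 after siKEAP1/siCCNF. Its siCONTROL libraries differed by more than those of the other 2 subunits, and its call after siCCNF (log2 fold change -0.49, SE 0.16, edgeR adjusted p = 0.0208) was lost without siCONTROL replicate 1, siCCNF replicate 2 or siCCNF replicate 3.

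Both genes that finish Okazaki fragments fell after siCCNF. Lig1, the ligase that seals them, stood at 110, 113 and 110 CPM in siCONTROL cells, 106, 111 and 106 after siKEAP1, 49.5, 48.2 and 50.8 after siCCNF, and 62.1, 69.7 and 73.9 after siKEAP1/siCCNF. The siKEAP1 libraries overlapped with siCONTROL and the siCCNF libraries were the lowest. Lig1 fell to 44.6% of control after siCCNF (log2 fold change -1.16, SE 0.068, edgeR adjusted p = 3.67e-08). Its exons share 247 bases with Zswim9 on the opposite strand, whose counts were 15.6% of those of Lig1. Fen1, the flap nuclease that trims the fragments, stood at 14.1, 11.7 and 12.7 CPM in siCONTROL cells, 9.66, 9.44 and 9.69 after siKEAP1, 8.47, 6.92 and 7.22 after siCCNF, and 9.17, 7.48 and 9.58 after siKEAP1/siCCNF. It was less abundant per length, at 5.26 ± 0.503 FPKM in siCONTROL cells against 25.8 ± 0.483 for Lig1 (SD, n = 3), and it fell after siCCNF (log2 fold change -0.77, SE 0.12, edgeR adjusted p = 0.000179). Reads of Fen1 cannot be told apart from those of Tmem258, an opposite-strand neighbour with more counts, over the bases that they share.

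The 5 genes of nucleotide supply and uracil removal fell after siCCNF and after both siRNAs, and 4 of them fell after siKEAP1. Ung, the glycosylase that removes uracil from DNA, changed most. It stood at 15.9, 15 and 12 CPM in siCONTROL cells, 2.18, 2.15 and 2.68 after siKEAP1, 5.87, 4.86 and 6.2 after siCCNF, and 2.74, 3.42 and 3.95 after siKEAP1/siCCNF. The siKEAP1 libraries were lowest, the siKEAP1/siCCNF libraries next and the siCCNF libraries after them, without overlap between any groups. Against siCONTROL it fell to 16.4% after siKEAP1 (log2 fold change -2.61, SE 0.17, edgeR adjusted p = 1.09e-07), 39.6% after siCCNF (log2 fold change -1.33, SE 0.16, edgeR adjusted p = 1.33e-05) and 23.6% after both (log2 fold change -2.09, SE 0.17, edgeR adjusted p = 5.55e-07). Ung was weakly expressed, at 2.6 ± 0.376 FPKM in siCONTROL cells and 0.426 ± 0.054 FPKM after siKEAP1 (SD, n = 3), and on the scale of log2(FPKM + 1) its change after siKEAP1 was -1.33.

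Rrm1, the large subunit of ribonucleotide reductase, stood at 294, 295 and 288 CPM in siCONTROL cells, 206, 210 and 203 after siKEAP1, 179, 196 and 195 after siCCNF, and 211, 214 and 205 after siKEAP1/siCCNF. The siKEAP1 and siKEAP1/siCCNF libraries overlapped, and siCCNF was the lowest. It fell least of the 5 after siCCNF (log2 fold change -0.62, SE 0.055, edgeR adjusted p = 1.24e-06). Tyms, which makes thymidylate, stood at 97.7, 81.9 and 79 CPM in siCONTROL cells, 63.8, 70.4 and 62.9 after siKEAP1, 42, 43.5 and 44.2 after siCCNF, and 48.8, 51.8 and 58.8 after siKEAP1/siCCNF. Tk1, the thymidine kinase of the salvage pathway, stood at 218, 177 and 178 CPM in siCONTROL cells, 130, 142 and 137 after siKEAP1, 85.4, 83 and 81.9 after siCCNF, and 99.6, 101 and 125 after siKEAP1/siCCNF. Both ranked siCONTROL, siKEAP1, siKEAP1/siCCNF and siCCNF from high to low without overlap, and Tk1 fell to 43.8% of control after siCCNF (log2 fold change -1.19, SE 0.098, edgeR adjusted p = 6.36e-07). Dut, which clears dUTP, did not pass the test after siKEAP1 (log2 fold change 0.0053, SE 0.097, edgeR adjusted p = 0.972) and fell after siCCNF (-0.70).

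Both measured subunits of chromatin assembly factor 1, which deposits histones on new DNA, fell in all 3 comparisons with siCONTROL. Chaf1b stood at 45.7, 41.3 and 38.7 CPM in siCONTROL cells, 29.4, 28.4 and 24.2 after siKEAP1, 15.3, 17.5 and 16.3 after siCCNF, and 20.2, 19.3 and 23.4 after siKEAP1/siCCNF. The groups did not overlap in any pair. The level after siCCNF was 39% of control (log2 fold change -1.36, SE 0.1, edgeR adjusted p = 3.22e-07), and after siKEAP1 65.2% (log2 fold change -0.62, SE 0.1, edgeR adjusted p = 0.000313). Chaf1a stood at 85.3, 89.8 and 89 CPM in siCONTROL cells, 66, 75.5 and 73 after siKEAP1, 45.6, 50.3 and 50.2 after siCCNF, and 55.3, 61.3 and 62.1 after siKEAP1/siCCNF. It followed the same order of groups with smaller differences, at -0.85 after siCCNF (edgeR adjusted p = 9.22e-07). The exons of Chaf1a share 4648 bases with Ubxn6 on the opposite strand, whose counts were 28.9% of those of Chaf1a, so that some reads may be shared.

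The fork protection genes fell after siCCNF by less in the median than the other groups that fell. Tipin, the partner of TIMELESS at the fork, stood at 83.1, 67.9 and 65.9 CPM in siCONTROL cells, 57.2, 59 and 58.2 after siKEAP1, 39.7, 41.9 and 40.3 after siCCNF, and 43.4, 44.4 and 50.7 after siKEAP1/siCCNF. The groups did not overlap, and siCCNF was the lowest. It fell in all 3 comparisons with siCONTROL, to 56.2% after siCCNF (log2 fold change -0.83, SE 0.09, edgeR adjusted p = 6.86e-06). Timeless stood at 49.6, 56.5 and 57.1 CPM in siCONTROL cells, 51.7, 61 and 51.1 after siKEAP1, 36.2, 36.4 and 38.9 after siCCNF, and 49.9, 46 and 50.7 after siKEAP1/siCCNF. It fell after siCCNF (log2 fold change -0.55, SE 0.085, edgeR adjusted p = 0.000157) but neither after siKEAP1 (log2 fold change 0.0055, SE 0.085, edgeR adjusted p = 0.967) nor after both (log2 fold change -0.16, SE 0.085, edgeR adjusted p = 0.156) did it pass the test. Wdhd1, which couples polymerase alpha to the helicase, stood at 42.1, 51.1 and 51.8 CPM in siCONTROL cells, 47.5, 47.2 and 44.1 after siKEAP1, 34.9, 38.5 and 37.3 after siCCNF, and 42.7, 44.3 and 39.9 after siKEAP1/siCCNF. It fell least of the 3 after siCCNF (log2 fold change -0.39, SE 0.085, edgeR adjusted p = 0.00193).

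**Figure D4:**
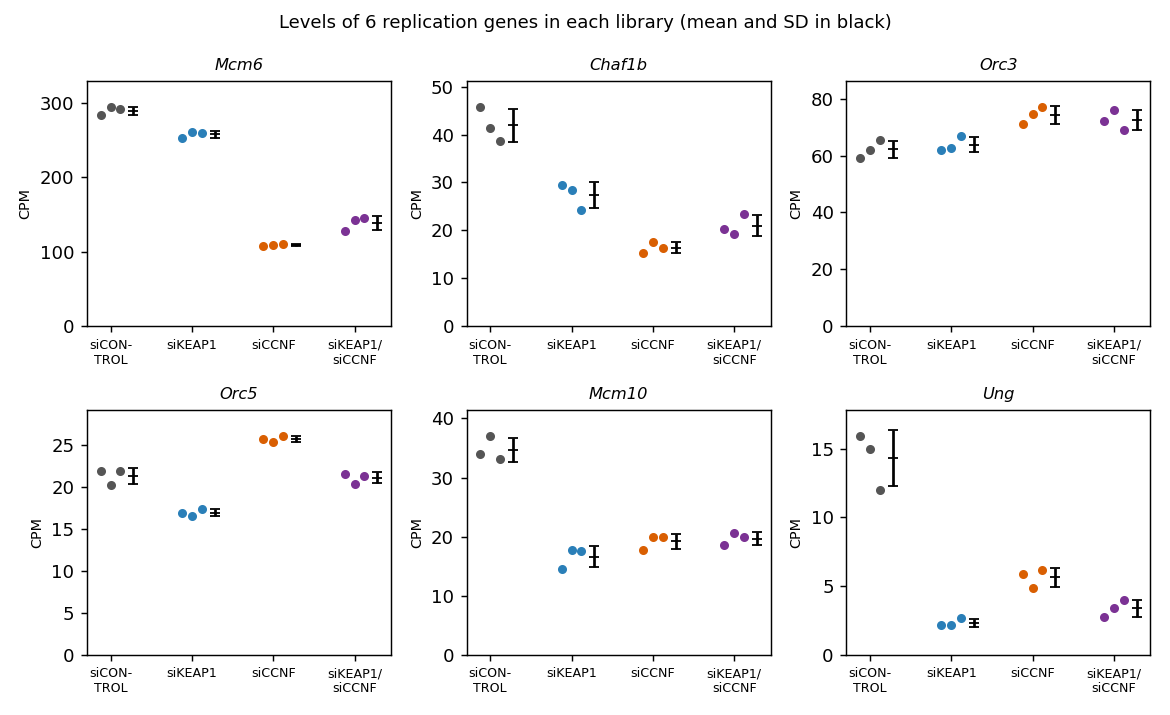
CPM of 6 replication genes in each library (coloured points, vertical axis from 0) in the 4 groups, with the mean and SD in black. Mcm6 and Chaf1b are lowest after siCCNF, Orc3 is higher in both groups that received siCCNF, Orc5 is lower after siKEAP1 and higher after siCCNF, and Mcm10 is low in all 3 depleted groups. Ung is lowest after siKEAP1, at 2.18, 2.15 and 2.68 CPM, and between that level and siCCNF when both are depleted.

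Depletion of Ccnf in cells that also lacked Keap1 lowered most of the genes again. Against siKEAP1, the siKEAP1/siCCNF cells had 32 of the 52 genes lower and 5 higher, beside 26.9% and 24.1% of all genes tested, with a median log2 fold change of -0.31. All 6 helicase subunits were lower, from -0.90 for Mcm6 to -0.27 for Mcm3, as were all 4 genes of polymerase alpha-primase, led by Pola2 (log2 fold change -1.05, SE 0.081, edgeR adjusted p = 2.8e-07). Of polymerase delta, the 3 subunits among the 52 were not called (0.0067, -0.10 and -0.08 for Pold1, Pold2 and Pold3), whereas Pold4 fell (log2 fold change -1.14, SE 0.12, edgeR adjusted p = 4.42e-06). The 5 genes called higher were Mcm10 (0.24), Orc3 (0.18), Orc5 (0.32), Orc6 (0.30) and Ung (0.53), and except for Orc5 each of these calls was lost with 1 or more single libraries left out.

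Part of the genes stood higher when Keap1 was depleted in cells that also lacked Ccnf. Ccnf itself stood at 23.7, 24.1 and 25.6 CPM after siKEAP1/siCCNF, above its 19.7, 20.5 and 21.3 CPM after siCCNF. That difference was not called (log2 fold change 0.26, SE 0.076, edgeR adjusted p = 0.0746), and its part in the rise of the replication genes was not tested. Against siCCNF, the siKEAP1/siCCNF cells had 16 genes higher and 2 lower, beside 3.00% and 2.19% of all genes tested, with a median log2 fold change of 0.28. The genes called higher included 5 of the 6 helicase subunits, led by Mcm5 (log2 fold change 0.43, SE 0.07, edgeR adjusted p = 0.00342), and 3 of the 4 genes of polymerase alpha-primase. Lig1 (log2 fold change 0.47, SE 0.068, edgeR adjusted p = 0.00143), Rpa1 (log2 fold change 0.32, SE 0.054, edgeR adjusted p = 0.00432), Mcm5 and Mcm6 (log2 fold change 0.35, SE 0.059, edgeR adjusted p = 0.004) were the 4 called in every alternative. The 2 called lower were Orc5 (log2 fold change -0.29, SE 0.068, edgeR adjusted p = 0.0277) and Ung (log2 fold change -0.75, SE 0.17, edgeR adjusted p = 0.0202). The number called higher depended on single libraries: it was 4 without siCCNF replicate 1, 9 without siCCNF replicate 2, 6 without siCCNF replicate 3, 7 without siKEAP1/siCCNF replicate 2 or 3, and 24 without siCONTROL replicate 1. Without the 2 libraries that stood apart it was 28.

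The median effect of siKEAP1 thus had opposite signs in control and in Ccnf-depleted cells, and the difference was tested for each gene as an interaction, which subtracts the log2 effect of siKEAP1 in control cells from its effect in Ccnf-depleted cells. Keap1 itself was less depleted by siKEAP1 when siCCNF was present, 12.3, 12.8 and 12.7 CPM after siKEAP1 against 22.2, 27 and 23.1 after siKEAP1/siCCNF (edgeR interaction 0.98, SE 0.11, adjusted p = 6.99e-05). The log2 effect of siCCNF on Ccnf was -1.99 in control cells and -1.28 in siKEAP1 cells (edgeR interaction 0.71, SE 0.11, adjusted p = 0.000442). Ccnf was also called lower after siKEAP1 alone (log2 fold change -0.45, SE 0.073, edgeR adjusted p = 0.000258). Its levels in siKEAP1/siCCNF and siCCNF cells were not called different (log2 fold change 0.26, edgeR adjusted p = 0.0746). The effects compared therefore come with unequal depletion of Keap1 and with a Ccnf level that siKEAP1 alone also lowered. The part of this in the interactions was not tested. The interaction was called in 30 of the 52 genes, all of them positive, beside 10.6% of all genes tested with a positive and 10.5% with a negative interaction. The 0 negative calls by edgeR were also 0 at an unadjusted p under 0.05, by DESeq2 and by limma. Its median was 0.50 and it ranged from -0.12 for Orc4 to 1.86 for Ung. After Ung (1.86, SE 0.24, edgeR adjusted p = 0.000169) the largest values were those of Mcm10 (1.09, SE 0.13, edgeR adjusted p = 9.61e-05), Chaf1b (0.98, SE 0.15, edgeR adjusted p = 0.000452), Rfc3 (0.89, SE 0.13, edgeR adjusted p = 0.000358), Tk1 (0.86, SE 0.14, edgeR adjusted p = 0.000734) and Rpa2 (0.83, SE 0.12, edgeR adjusted p = 0.000441). Of the 30 genes, 13 were called higher in siKEAP1/siCCNF than in siCCNF cells, 16 were not called and 1, Ung, was lower. Among those without a call were Rfc3, Pold1 and Pold3 (0.13, 0.14 and -0.11). Ung was lower in siKEAP1/siCCNF than in siCCNF cells, by less than the fall that siKEAP1 gave alone, and the Mcm10 libraries of these groups overlapped (log2 fold change 0.035, SE 0.093, edgeR adjusted p = 0.894). When single libraries were left out, the interaction was called in 24 to 34 of the genes, and without the 2 libraries that stood apart in 38. Among the 20 G2/M genes a positive interaction was called in 17 and a negative one in 0, with a median of 0.77.

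**Figure D5:**
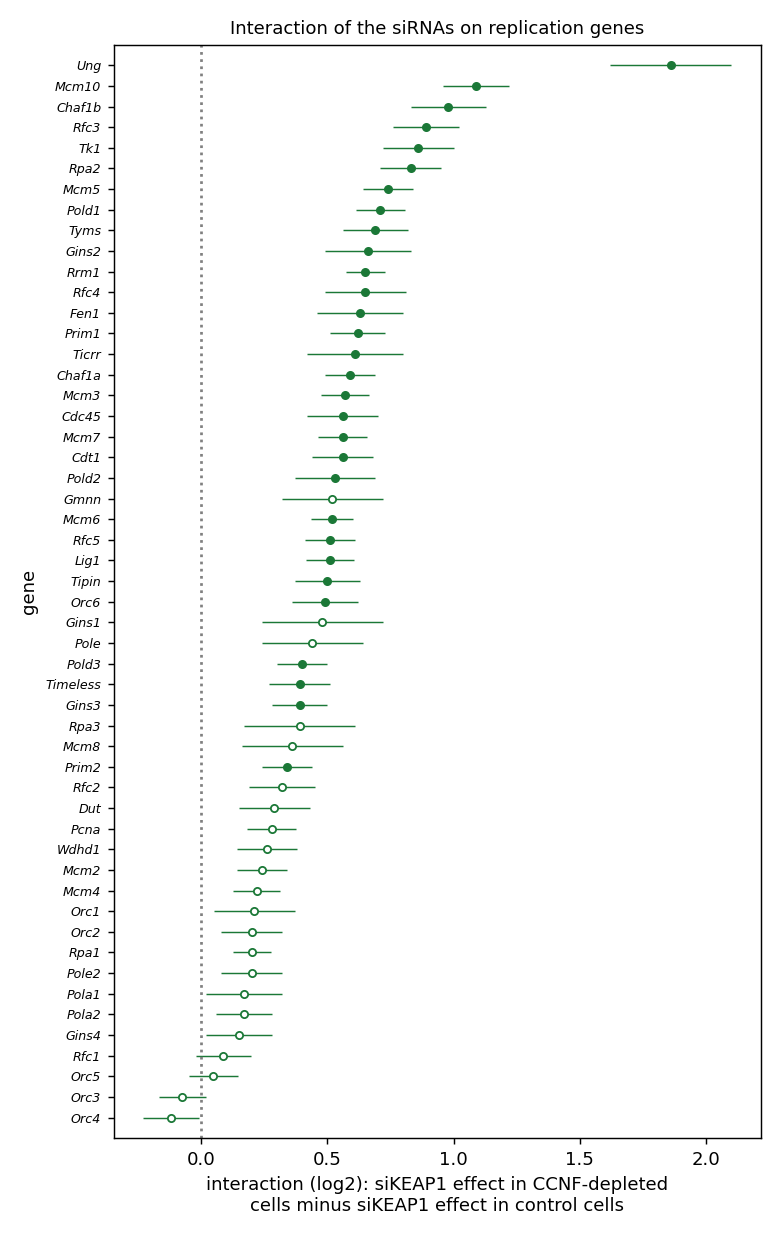
Interaction of each of the 52 genes (horizontal axis, log2, with standard errors), sorted by value. Filled points were called. The 30 filled points are all to the right of 0, from 0.34 for Prim2 to 1.86 for Ung, and the 3 lowest values are those of Orc4, Orc3 and Orc5.

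By complex, the interaction was called in 4 of 6 helicase genes, 4 of 6 helicase partners, 3 of 5 genes of polymerases delta and epsilon, 3 of 6 of the clamp and its loader, 4 of 5 of nucleotide supply, both genes of chromatin assembly and of Okazaki fragment processing, and 2 of 3 of fork protection. It was called in 2 of 4 genes of polymerase alpha-primase, 1 of 3 of RPA, 1 of 2 of licensing control and 1 of 2 other MCM proteins. In the origin recognition complex it was called for Orc6 alone (log2 fold change 0.49, SE 0.13, edgeR adjusted p = 0.0185), a call lost without siCCNF replicate 3. For polymerase delta the 3 subunits among the 52 were called, 0.71 for Pold1, 0.53 for Pold2 and 0.40 for Pold3, but Pold4 had a negative interaction (-0.80, SE 0.17, edgeR adjusted p = 0.00416). For polymerase epsilon Pole and Pole2 were not called (0.44 and 0.20), and Pole3 was (0.52). The calls of Ticrr, Timeless and Prim2 were lost in 12, 9 and 9 of the 21 alternatives, and those of Fen1, Gins3 and Pold2 in 3 each.

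Promoter sequence was found for 43 of the 52 genes. It was missing for Gmnn, Pole, Gins1, Prim2, Rfc2, Gins2, Tipin, Gins4 and Mcm4. An E2F-type match was present in 15 of the 43 (34.9%), beside 2.6% of the 27025 genes with a promoter in the table. By complex it was present in 4 of 5 helicase genes, 3 of 4 of polymerases delta and epsilon, 2 of 6 of the origin recognition complex (Orc1 and Orc3), and in 0 of 3 RPA genes, 0 of 5 of nucleotide supply and 0 of 2 of chromatin assembly. The 15 genes with a match showed a median log2 change after siCCNF of -0.85, from -1.41 to 0.26, and the 28 without one a median of -0.73, from -1.36 to 0.27. Chaf1b, Tk1 and Ung thus fell more than 2-fold without a match to these letters in the window, and Orc3 rose with one. The box CCAAT was present in 25 of the 43 (58.1%, beside 41.1% of all genes) and the element TTTGAA, which is found in genes of G2 and M phase, in 5 (11.6%, beside 20.2%), each on either strand. A match describes the letters and not the binding of a factor.

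Of a list of 49 further replication genes outside the 52, 40 were called lower after siCCNF and 0 higher by edgeR, beside 25.5% and 22.5% of all genes tested. At an unadjusted p under 0.05 edgeR also gave 0 higher, and the median log2 fold change was -0.68. By edgeR, 9 did not pass the test, among them Dna2 (log2 fold change -0.029, SE 0.11, edgeR adjusted p = 0.853). Among the largest falls were those of Rrm2b, a subunit of ribonucleotide reductase induced by p53, and Cdc6, which loads the MCM ring. Rrm2b stood at 18.5, 22.7 and 24.3 CPM in siCONTROL cells and 7.67, 9.56 and 6.9 after siCCNF (log2 fold change -1.45, SE 0.17, edgeR adjusted p = 1.33e-05). Cdc6 stood at 38.3, 38.4 and 38.7 and 14.5, 14.6 and 16.3 CPM (log2 fold change -1.34, SE 0.1, edgeR adjusted p = 2.45e-07). In both genes the siCCNF libraries lay below siCONTROL without overlap. After siKEAP1, 22 of the 49 were called lower and 5 higher, beside 20.2% and 20.4% of all genes tested, with a median of -0.24. After both siRNAs 32 were called lower and 0 higher by edgeR, beside 23.6% and 20.6% of all genes tested, with a median of -0.48. The 0 higher after both were also 0 at an unadjusted p under 0.05. The interaction was called with a positive sign in 24 of the 49 and with a negative sign in 1, beside 10.6% and 10.5% of all genes tested, with a median of 0.39.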

How the data were processed

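Poly(A)-selected RNA of 12 C2C12 libraries, 3 in each of 4 siRNA groups, was analysed from the deposited table of 54532 genes. The authors' table holds a count of reads per gene and library without normalization, FPKM values made from them, and gene lengths. It also holds group means and the authors' comparisons (log2 fold change, p-value, adjusted p-value), which were not used. The submitters' processing notes name HISAT2 and GRCm39, whereas the table's coordinates are those of GRCm38. The counting tool, its annotation and its use of strand are not given in the sources used here.

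The counts were tested in R 4.3.3 with edgeR 4.0.16. The filter filterByExpr left 15122 genes, TMM scaled the libraries, and all 12 libraries entered 1 quasi-likelihood fit with a mean for each of the 4 groups. It gave 6 comparisons: the 3 depletions against siCONTROL, the double depletion against each single one, and the interaction. P-values were adjusted by Benjamini-Hochberg over the genes tested. Log2 CPM used a prior count of 2. The deposited FPKM values were used for levels between genes and in limma 3.58.1. The test was tried on simulated data for siCCNF against siCONTROL with 14702 genes, where it found 171 of 200 changed genes and called 7 unchanged ones. The simulation gave every gene the same dispersion and held no libraries that stood apart, so that these numbers are not error rates of the real data. The deepest library held 37743198 counts and the shallowest 18464209, and the lowest count of any of the 52 genes in a library was 47, for Ung.

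Values in every library are given for the genes that fell most and least in each complex after siCCNF, those called higher against siCONTROL, those called in the interaction and the largest falls in the other comparisons, and for several more members. The 52 genes, the complexes, the lists and the tests were chosen with earlier results of these data known. Replicate numbers were taken from the labels. Of the 18 pairs of same-numbered libraries in different groups, 4 had deviations from the group means correlated at r over 0.1 (range -0.268 to 0.204), so that numbers were not taken to pair the samples.

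The alternatives were DESeq2 1.42.0, library totals without TMM, omission of the filter, a minimum of 10 counts in each library, a replicate block, limma on log2(FPKM + 1) and log2(FPKM + 0.1), a fit of the compared groups only, removal of a gene length trend by splines with 5 degrees of freedom, each library left out, and both libraries that stood apart left out. Promoters were taken from RefSeq on GRCm38.p6. Python 3.11.15 was used for them. Exons that members share with other genes were found from the annotation of the reference genome of the same build.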

Additional observations from a re-analysis of the deposited data

Results flagged for a closer look

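For 30 of the 52 genes the effect of siKEAP1 differed between control and Ccnf-depleted cells, as tested by the interaction term in edgeR at an adjusted p under 0.05. Of all genes tested, 10.6% had a positive and 10.5% a negative interaction by the same rule. Each value subtracts the log2 effect of siKEAP1 in control cells from its effect with Ccnf depleted. Among the helicase and licensing genes the interaction was 0.57 for Mcm3, 0.74 for Mcm5, 0.52 for Mcm6, 0.56 for Mcm7, 1.09 for Mcm10, 0.49 for Orc6 and 0.56 for Cdt1. Among the helicase partners and firing factors it was 0.66 for Gins2, 0.39 for Gins3, 0.56 for Cdc45 and 0.61 for Ticrr. Among the primase and polymerase genes it was 0.62 for Prim1, 0.34 for Prim2, 0.71 for Pold1, 0.53 for Pold2 and 0.40 for Pold3. For the clamp loader it was 0.89 for Rfc3, 0.65 for Rfc4 and 0.51 for Rfc5, and for RPA it was 0.83 for Rpa2. In Okazaki fragment processing it was 0.63 for Fen1 and 0.51 for Lig1. In nucleotide supply and uracil removal it was 0.65 for Rrm1, 0.69 for Tyms, 0.86 for Tk1 and 1.86 for Ung. In chromatin assembly it was 0.59 for Chaf1a and 0.98 for Chaf1b, and in fork protection 0.39 for Timeless and 0.50 for Tipin. All 30 values were positive, and 7 of the 30 calls were lost in at least 1 alternative. Keap1 was less depleted when siCCNF was present, at 12.3, 12.8 and 12.7 CPM after siKEAP1 and 22.2, 27 and 23.1 CPM after siKEAP1/siCCNF, and its own interaction was 0.98 (SE 0.11, edgeR adjusted p = 6.99e-05). Ccnf stood at 19.7, 20.5 and 21.3 CPM after siCCNF and 23.7, 24.1 and 25.6 CPM after siKEAP1/siCCNF, and its own interaction was 0.71 (SE 0.11, edgeR adjusted p = 0.000442). Ccnf was also called lower after siKEAP1 alone (log2 fold change -0.45, SE 0.073, edgeR adjusted p = 0.000258). The part of these differences in the 30 values was not tested. Groups of 3 libraries were too small for the check of single outlying libraries.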

How the results depend on the processing

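Each count and median was recomputed under 22 alternatives (21 for the interaction), of which 12 left out 1 library. No median and no result of a single gene reversed. A count cannot reverse, and only its size was compared. For the results of single genes that were called, 4348 values under an alternative were computed, of which 4101 kept direction and call and 247 lost the call. For those not called, 122 of 2464 values gained one. Genes called in every alternative were 46 of 49 after siCCNF, 38 of 41 after siKEAP1/siCCNF, 19 of 24 after siKEAP1, 26 of 37 against siKEAP1, 4 of 18 against siCCNF and 23 of 30 for the interaction. With each library left out, the genes called lower numbered 19 to 26 after siKEAP1, 45 to 47 after siCCNF, 39 to 43 after both, 26 to 33 for both against siKEAP1 and 0 to 2 for both against siCCNF, and 0 for the interaction. The genes called higher numbered 0 to 1, 2 to 3, 0 to 1, 2 to 5 and 4 to 24 in the same order, and 24 to 34 for the interaction. The medians were -0.23 to -0.18, -0.82 to -0.78, -0.58 to -0.51, -0.35 to -0.27, 0.22 to 0.28 and 0.43 to 0.55. After siKEAP1, the number called higher was 1 with total library sizes, 2 with DESeq2, 2 with at least 10 counts in every library, 2 and 1 with limma on log2(FPKM + 1) and log2(FPKM + 0.1), and 3 without both libraries that stood apart. With no filter it was 1 after siCCNF, 0 after both and 3 for both against siKEAP1, and 1 gene was lower against siCCNF. For both against siKEAP1 it was 3 with total library sizes, with limma on log2(FPKM + 1), in the compared groups only and without both libraries. With the compared groups only, 0 genes were higher after both, and against siCCNF 0 were lower and 9 higher. Without both libraries 28 were higher against siCCNF. Limma gave 1 gene lower against siCCNF at either pseudocount. On log2(FPKM + 1) the medians were -0.71 after siCCNF, -0.50 after both, 0.20 against siCCNF and 0.42 for the interaction. Without both libraries they were 0.23 against siCCNF and 0.42 for the interaction, and with the length trend removed -0.27 after siKEAP1 and -0.20 for both against siKEAP1. Without the 2-fold threshold the genes called were 24, 49, 41, 37, 18 and 30, in place of 2, 13, 4, 1, 0 and 2. The replicate block gave 47 genes lower after siCCNF, 24 after siKEAP1 and 40 after both, 12 higher against siCCNF and 29 with a positive interaction, and moved no count by over 1.5 times. The pairing check in the methods gave correlations of -0.268 to 0.204 between samples of the same number. With 3 libraries in each group, and both libraries that stood apart included, it cannot show whether samples of the same number shared a batch. The causes of these differences were not tested. Ung, with as few as 47 counts, is the gene that depth limits most.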

Other observations

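Some replication genes outside the 52 went against the direction of the group after siKEAP1. Of the list of 49 further genes, 5 were called higher by edgeR, beside 20.4% of all genes tested. These genes were Pold4, a small subunit of polymerase delta (log2 fold change 0.79, SE 0.12, edgeR adjusted p = 0.00013), Zranb3 and Smarcal1, which remodel stalled forks (0.42 and 0.28), Dnmt1, the maintenance DNA methyltransferase (0.34), and Lrwd1, which associates with the origin recognition complex (0.25). They were chosen after their values were seen. No explanation was tested.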
